A study of Mus musculus with 4 samples.

Results

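Nsd1-high tumour nuclei are the gated tumour nuclei of CT26 tumours with at least 3 UMIs (unique molecular identifiers, counted RNA molecules) of Nsd1 and at least 2 Nsd1 UMIs per 10000. The gate for tumour nuclei asked for at least 5 Hmga2 UMIs per 10000 and at most 1 UMI of the leukocyte gene Ptprc. Nuclei under 500 UMIs or 300 genes, or over 20% mitochondrial UMIs, had been left out. The rule found 325 members among 5517 kept nuclei. There were 19 among 1343 gated nuclei of the Sun1_KO tumour (1.41%, 0.854 to 2.20) and 306 among 2308 of the Sun1_WT tumour (13.3%, 11.9 to 14.7). They were compared with Nsd1-zero nuclei, gated nuclei of at least 10000 UMIs with no Nsd1 UMI, of which there were 764 in Sun1_KO and 1081 in Sun1_WT.

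The tumours grew from the CT26 colon cancer line, which is of BALB/c origin, injected under the skin of the flank in BALB/c mice and taken on day 14. The injected cells carried a knockout of Sun1 (Sun1_KO), a protein of the nuclear envelope that helps couple the nucleus to the cytoskeleton, or were labelled wild type (Sun1_WT), and both grew in hosts of the same strain with their own immune and stromal cells. Each genotype gave 1 library of nuclear RNA and 1 of accessible chromatin from the same nuclei, 4 libraries in all. There were no replicates, so no test was possible, and every interval is a 95% interval that covers counting error only. How many tumours, animals or edited clones stand behind each library was not stated in the sources at hand.

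Nsd1 encodes a histone methyltransferase that places mono- and dimethyl marks on lysine 36 of histone H3, mostly between genes and at distal elements. Nsd2 and Nsd3 are its relatives, and Setd2 writes the trimethyl mark over transcribed genes. The dimethyl mark is known to oppose polycomb methylation and to guide DNA methylation. Loss of one copy of human NSD1 causes Sotos syndrome, an overgrowth disorder, and NSD1 is recurrently mutated in head and neck carcinoma.

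Both RNA libraries were deep, with 35471291 UMIs and a median of 11548.5 per nucleus in Sun1_KO and 53707675 UMIs and a median of 13789 in Sun1_WT. The libraries shared 12 cell barcodes. None of these was a member in both libraries, but 4 Sun1_WT members carried a barcode also present in the Sun1_KO library. Members were somewhat shallower than the nuclei they were set against. Median UMIs were 15662 in Sun1_KO members and 15437.5 in Sun1_WT members, against 17442 in Sun1_KO and 18922 in Sun1_WT Nsd1-zero nuclei. Nsd1-zero nuclei had to hold at least 10000 UMIs, which 18 of 19 Sun1_KO and 255 of 306 Sun1_WT members did. Shares of members and of Nsd1-zero nuclei with a UMI are therefore not at equal depth. Sun1 itself stood at 94.1 CPM (25 UMIs) in Sun1_KO members and 106 CPM (558 UMIs) in Sun1_WT members, a log2 ratio of -0.14 (-0.81 to 0.41). In Nsd1-zero nuclei Sun1 was at 65.7 CPM in Sun1_KO and 105 CPM in Sun1_WT, a log2 ratio of -0.68 (-0.80 to -0.57). CPM (counts per 1000000) is here taken over the UMIs of all nuclei of a set, without mitochondrial genes.

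Nsd1 chose the members, so its level is a description. Sun1_KO members held 3 to 10 Nsd1 UMIs with a median of 5, and together 358 CPM (95 UMIs). Sun1_WT members held 3 to 42 with a median of 11, and together 731 CPM (3846 UMIs). The ranges overlapped, but no Sun1_KO member exceeded 10 UMIs while the middle Sun1_WT member had 11. Most of the gated Nsd1 RNA of the Sun1_WT tumour came from these few nuclei: members held 15.5% of all gated Nsd1 UMIs in Sun1_KO and 78.6% in Sun1_WT. Over all gated nuclei Nsd1 stood at 27.5 CPM (25.4 to 29.8) in Sun1_KO and 121 CPM (118 to 124) in Sun1_WT. With the members left out the levels were 23.5 CPM (21.6 to 25.7) in Sun1_KO and 29.8 CPM (28.0 to 31.6) in Sun1_WT; members were picked for Nsd1, so their removal had to narrow this gap. In the authors' deposited table, which sets the libraries against each other, Nsd1 had a log2 fold change of -1.62 with an adjusted p of 4.77e-28 from DESeq2's Wald test; which nuclei it compared and what it took as a unit were not stated in the sources at hand.

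**Figure D1:**
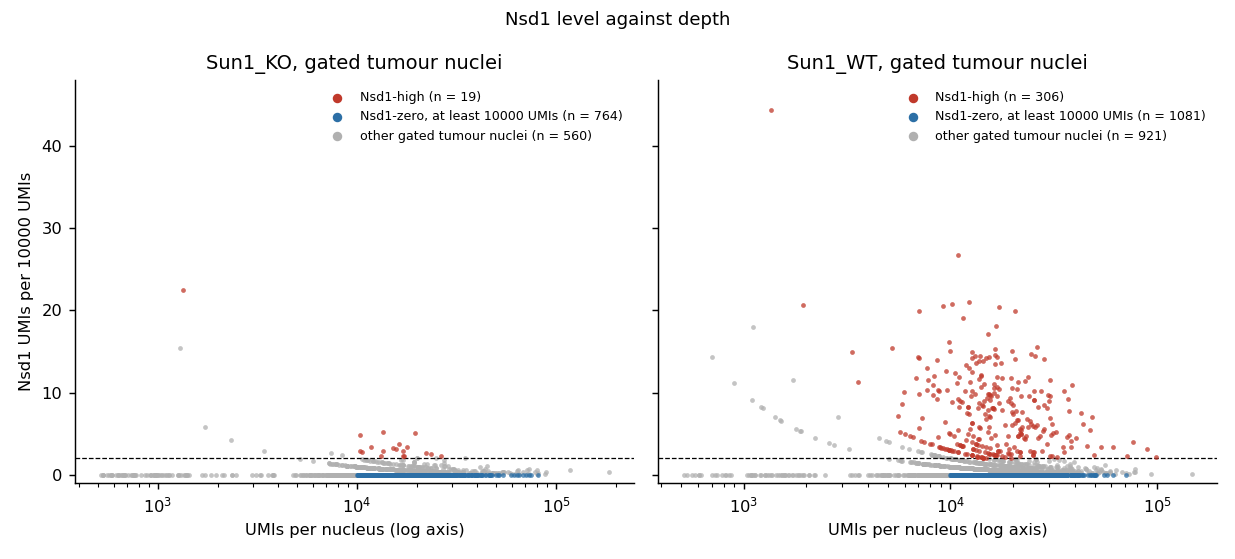
Nsd1 UMIs per 10000 UMIs (vertical axis) against the UMIs of each gated tumour nucleus (horizontal log axis), Sun1_KO left and Sun1_WT right. Points are nuclei, red for Nsd1-high, and the dashed line marks 2 per 10000. The 306 Sun1_WT members reach 44.3 per 10000, whereas 18 of the 19 Sun1_KO members lie between 2.27 and 5.17 per 10000.

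Members were found over most of the range of depth. Of Sun1_WT gated nuclei, 4.08% were members at 500 to 5000 UMIs, 16.2% at 5000 to 10000, 15.1% at 10000 to 20000, 10.6% at 20000 to 40000 and 15.7% above that. In Sun1_KO, the 10000 to 20000 bin held 15 of the 19 members. When nuclei of at least 10000 UMIs were thinned to 10000 UMIs each, 1.47% of Sun1_KO and 11.7% of Sun1_WT gated nuclei kept at least 3 Nsd1 UMIs, and 0 of 1091 Sun1_KO against 72 of 1919 Sun1_WT nuclei kept at least 10. The thinned variance over mean was 1.64 in Sun1_KO and 7.14 in Sun1_WT. Among genes present in at least 10% of these nuclei it ranked 1051 of 8933 in Sun1_KO and 35 of 8957 in Sun1_WT, so Nsd1 was among the most unevenly distributed genes of the Sun1_WT tumour.

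The members differed among themselves by level. In Sun1_KO, 3 members lay at or above 5 per 10000 and 16 between 2 and 5. In Sun1_WT, 182 members lay at or above 5 per 10000 and 124 between 2 and 5. Just inside the threshold, 4 Sun1_KO and 31 Sun1_WT members lay between 2 and 2.5 per 10000. Just outside it, 3 Sun1_KO and 26 Sun1_WT nuclei reached 2 per 10000 with only 2 UMIs, and 31 Sun1_KO and 78 Sun1_WT nuclei held at least 3 UMIs below 2 per 10000.

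Leukocyte-gene nuclei, those with at least 3 Ptprc UMIs, more often had an Nsd1 UMI than gated tumour nuclei. How evenly they carried it was not measured. Nsd1 stood at 152 CPM in these nuclei of Sun1_KO and 206 CPM in those of Sun1_WT, and it was detected in 69.0% of them in Sun1_KO and 68.0% in Sun1_WT, at median depths of 5166 and 5311 UMIs. Of gated tumour nuclei only 27.2% in Sun1_KO and 42.5% in Sun1_WT had an Nsd1 UMI, at the larger median depths of 16185 and 17059. No cell type that should lack Nsd1 was at hand, and the 27.2% of Sun1_KO tumour nuclei is the lowest of these 4 shares.

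The tumour label was checked against its markers, leaving out Hmga2, since the gate used it. The other 11 tumour markers, among them Igf2bp2, Fosl1, Cald1 and Tnc, summed to 2766 CPM in Sun1_KO members against 1133 in Sun1_KO Nsd1-zero nuclei, and to 1214 CPM in Sun1_WT members against 1208 in Sun1_WT Nsd1-zero nuclei. Without nuclei of 2 or more Xist UMIs the Sun1_KO members stood at 1193 CPM. Leukocyte-gene nuclei reached 744 CPM in Sun1_KO and 734 CPM in Sun1_WT on these 11, and nuclei outside the gate with fibroblast markers reached 2720 CPM in Sun1_KO and 6181 CPM in Sun1_WT, so the summed list does not set tumour nuclei apart from fibroblasts. Krt8, Krt18 and Areg were at 0 in Sun1_KO members, as was Krt8 in Sun1_WT members. The 10 macrophage markers summed to 154 CPM in Sun1_KO members against 126 in Nsd1-zero nuclei and to 160 CPM in Sun1_WT members against 134, far below the 3477 and 6774 CPM of leukocyte-gene nuclei. The NK-cell list stood at 18.8 CPM in Sun1_KO members and 13.1 CPM in Sun1_WT members, and the T-cell list at 7.53 and 4.18 CPM. The neutrophil, B-cell and dendritic markers had no UMI in Sun1_KO members and 5, 7 and 3 UMIs in Sun1_WT members. Endothelial markers summed to 33.9 CPM in Sun1_KO members against 23.9 in Nsd1-zero nuclei and to 75.2 CPM in Sun1_WT members against 30.1, or 27.6 CPM in Sun1_WT members without the 6 nuclei that held Xist.

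Fibroblast markers moved with the Sun1_KO members. The 7 markers (Dcn, Pdgfra, Pdgfrb, Lum, Col1a1, Col3a1 and Postn) summed to 6578 CPM in Sun1_KO members against 707 in Sun1_KO Nsd1-zero nuclei, and to 1234 CPM in Sun1_WT members against 864 in Sun1_WT Nsd1-zero nuclei. The excess lay in 5 of the 19 Sun1_KO members, the ones with at least 2 UMIs of Xist, the RNA that coats the inactive X of female cells. Xist stood at 5 to 38 UMIs in these 5 and at 0 in the other 14. The 5 held 82 to 548 fibroblast-marker UMIs each (17929 CPM) and 90 to 236 tumour-marker UMIs, while the other 14 held 1 to 34 fibroblast-marker UMIs (876 CPM) and 16 to 123 tumour-marker UMIs. Met and Epha2, epithelial receptors on the tumour list, had no UMI in the 5. Leukocyte-gene nuclei, which come from the host, also carried Xist, at 706 CPM in Sun1_KO and 991 CPM in Sun1_WT. In Sun1_WT, 6 of 306 members had at least 2 Xist UMIs, and without them the fibroblast markers summed to 1093 CPM. Xist was chosen as a divider after its values were seen, no doublet caller was run, and the part of mixed profiles in any result was not tested. Values without nuclei of 2 or more Xist UMIs are therefore given beside many results below.

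Among 11162 genes with at least 100 summed UMIs in Sun1_WT, 78 (0.699%) were higher by 2-fold or more and 53 (0.475%) lower by as much in members than in Nsd1-zero nuclei. Without the 6 Xist-positive members, 46 genes (0.413% of 11133) were higher and 55 (0.494%) lower. Among 10121 genes in Sun1_KO, 544 (5.37%) were higher and 972 (9.60%) lower (without Xist-positive nuclei 573 of 10062, 5.69%, and 823, 8.18%), a split that became 774 higher and 739 lower under median-ratio scaling, which moved the median of all genes by 0.14 on the log2 scale. With 19 members and 95 Nsd1 UMIs, the Sun1_KO counts carry wide counting error and their shares carry little weight beside those of Sun1_WT.

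Among the genes higher in Sun1_WT members was Ank3 (chromosome 10, 69533486 to 70027436, mm10), which encodes ankyrin-G, an adaptor between membrane proteins and the spectrin skeleton. Ank3 was at 70.7 CPM in members (372 UMIs) against 3.71 CPM in Nsd1-zero nuclei (77 UMIs), a log2 ratio of 4.25 (3.90 to 4.63). It had a UMI in 32.7% of members against 6.11% of Nsd1-zero nuclei, the top nucleus held 6.72% of the members' UMIs, and leukocyte-gene nuclei were at 12.4 CPM. The groups of nuclei overlap, since most members had no Ank3 UMI. The ratio was 4.29 without Xist-positive nuclei.

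Other genes higher in Sun1_WT members had smaller counts. These genes, like those named as lower below, were picked by size within Sun1_WT after their values were seen. Dock10, a guanine nucleotide exchange factor, was at 15.2 CPM (80 UMIs) in members against 1.16 CPM (24 UMIs), a log2 ratio of 3.70 (3.04 to 4.44). It is abundant in leukocyte-gene nuclei, at 612 CPM, and 1 UMI of Ptprc was present in 11 of 306 members against 37 of 1081 Nsd1-zero nuclei. The part of leukocyte RNA in the Dock10 value was not tested. Dpt, the matrix protein dermatopontin, was at 14.4 against 1.35 CPM (log2 ratio 3.40, 2.78 to 4.10), and Clec1a, a C-type lectin receptor, at 13.3 against 1.69 CPM (2.97, 2.38 to 3.61). Neither is abundant in leukocyte-gene nuclei, where Dpt was at 0.547 and Clec1a at 4.37 CPM.

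Ablim1, an actin-binding LIM protein, was at 31.3 CPM in Sun1_WT members against 4.43 CPM in Nsd1-zero nuclei, a log2 ratio of 2.82 (2.45 to 3.21). Scara5, a ferritin receptor, was the most abundant of these genes. It had 433 UMIs (82.3 CPM) in members and was detected in 51.3% of them, against 33.3 CPM and 29.0% in Nsd1-zero nuclei, a log2 ratio of 1.30 (1.13 to 1.48). Tnr (tenascin-R) had a ratio of 1.75 (1.44 to 2.05), Galnt15, which starts O-linked glycans, 2.14 (1.57 to 2.71), the retinol transporter gene Stra6 1.90 (1.32 to 2.48) and Arhgap28, a GTPase-activating protein, 1.45 (1.26 to 1.65). The death receptor gene Fas had a ratio of 1.26 (0.85 to 1.65) in Sun1_WT and 2.79 (1.74 to 3.62) in Sun1_KO.

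Several ratios rested on single nuclei. The richest Sun1_WT member held 90.2% of the members' UMIs of Igfbp3, 90.9% of Plvap, 62.1% of Igfbp7, 84.5% of Cxcl14 and 74.6% of Cxcl9. Without the Xist-positive nuclei the log2 ratio was -1.45 in place of 7.20 for Igfbp3, 0.19 in place of 3.53 for Plvap, 0.50 in place of 5.98 for Igfbp7, 0.67 in place of 3.93 for Cxcl14 and -0.10 in place of 3.75 for Cxcl9.

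Genes lower in Sun1_WT members included several known from neurons. Ptprt, a receptor tyrosine phosphatase of synapses, was at 12.2 CPM (64 UMIs) in members against 47.4 CPM (984 UMIs) in Nsd1-zero nuclei, a log2 ratio of -1.95 (-2.35 to -1.60). Syt1, synaptotagmin-1, the calcium sensor of vesicle release, was at 24.7 against 60 CPM (-1.28, -1.55 to -1.02) and detected in 15.7% of members against 42.6% of Nsd1-zero nuclei. Lrfn5, a synaptic adhesion protein, had 4 UMIs (0.760 CPM) in members against 118 UMIs (5.68 CPM), a ratio of -2.74 (-4.80 to -1.51), and Gpc5, a glypican, had -1.56 (-2.21 to -1.01). The list of long neural adhesion genes did not move one way: of 25 long neural adhesion genes, 10 could be compared in Sun1_WT, of which 2 passed 1.5-fold on the higher side and 2 on the lower, with Lsamp at 1.60 (1.09 to 2.09) and a median of 0.25 against 0.00 for all genes.

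Airn, a long non-coding RNA made from the paternal copy of the Igf2r locus, stood at 111 CPM (585 UMIs) in Sun1_WT members against 208 CPM (4329 UMIs) in Nsd1-zero nuclei, a log2 ratio of -0.91 (-1.03 to -0.78). It was detected in 44.1% of members against 81.2% of Nsd1-zero nuclei. Airn runs antisense to Igf2r, and whether the counting used strand was not stated, so reads of the pair cannot be told apart. Ndst4, an enzyme of heparan sulphate synthesis, was at 264 against 464 CPM (-0.81, -0.90 to -0.73), Cntnap4, a contactin-associated protein, at 74.9 against 137 CPM (-0.87, -1.03 to -0.72), and the zinc-finger gene Zfp985 at 68.2 against 131 CPM (-0.94, -1.10 to -0.78). Zfp985 and Zfp978 belong to a family of near-identical copies on chromosome 4, so their separate levels are uncertain.

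Sun1_WT members were then taken by their Nsd1 level. In the 182 members at or above 5 Nsd1 UMIs per 10000, set against the same Nsd1-zero nuclei, 52 of 10972 genes (0.474%) passed 2-fold on the higher side and 104 (0.948%) on the lower. Ank3 had a log2 ratio of 4.73 (4.37 to 5.12) there, Dock10 4.24 and Ablim1 3.19 (2.78 to 3.60). On the lower side Syt1 stood at -4.05 (-5.18 to -3.24), Ptprt at -3.24 (-4.17 to -2.54), Gpc5 at -3.31 (-5.36 to -2.11), Cyp2c55, a cytochrome P450 gene, at -2.68 (-3.89 to -1.81) and Airn at -2.34 (-2.62 to -2.08). Lrfn5 had no UMI in these 182 nuclei, which allows a share of up to 1.65% of nuclei with a UMI and makes it at least 5.49-fold lower when the floor is 3 counts.

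**Figure D2:**
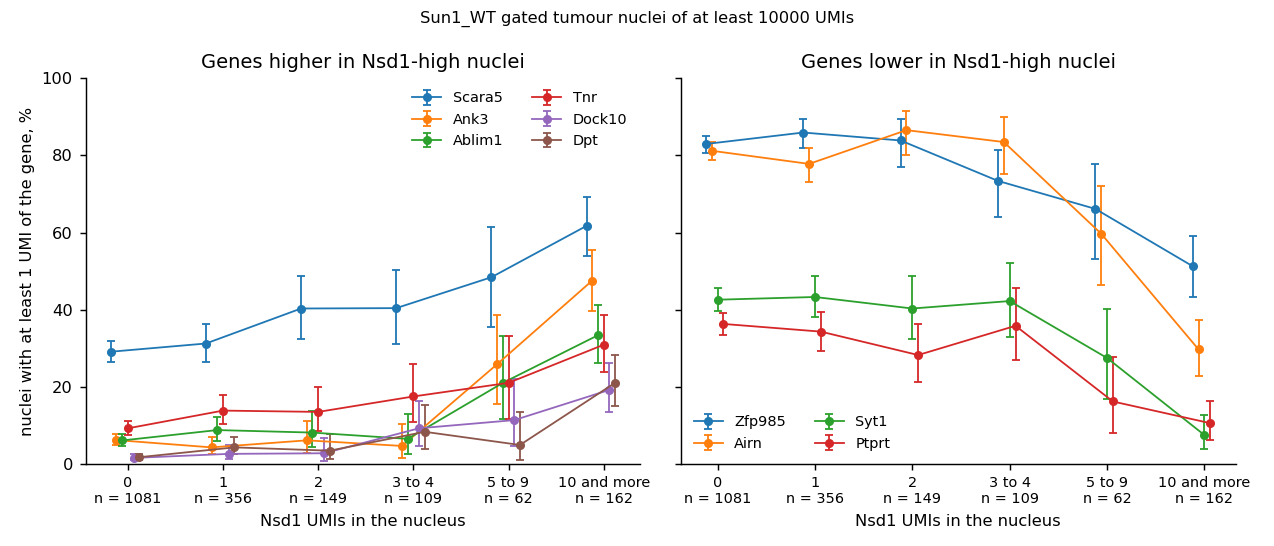
Share of Sun1_WT gated tumour nuclei of at least 10000 UMIs with at least 1 UMI of each gene (vertical axis, %), by the Nsd1 UMIs of the nucleus (horizontal axis), with 95% binomial intervals. Ank3 goes with the 2 highest Nsd1 classes, at 25.8% and 47.5% against 4.21% to 6.11% below 5 UMIs, while Airn and Syt1 are at their lowest there. The genes were named for differing between members and Nsd1-zero nuclei, so some difference between the end classes was built in.

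Sun1_WT nuclei with at least 10000 UMIs were also ordered by their Nsd1 count. Ank3 was detected in 6.11% of nuclei with 0, 4.21% with 1, 6.04% with 2, 4.59% with 3 to 4, 25.8% with 5 to 9 and 47.5% with 10 or more Nsd1 UMIs. Airn was detected in 81.2%, 77.8%, 86.6%, 83.5%, 59.7% and 29.6% in the same order. Median depths were close, between 17939 and 19956.5 UMIs over all 6 classes. For Ank3 and Airn the intervals overlapped up to 4 Nsd1 UMIs, and the shares parted above that. These genes were named for differing between Sun1_WT members and Nsd1-zero nuclei. The class of 0 is the Nsd1-zero nuclei and the highest classes hold members, so some parting between them was built in by that choice. Other genes did not follow the same steps: Dock10 was already at 9.17% (4.49 to 16.2) with 3 to 4 UMIs against 1.48% with 0, Scara5 at 40.3% (32.3 to 48.6) with 2 against 29.0% with 0, and Dpt at 8.26% with 3 to 4, 4.84% with 5 to 9 and 21.0% with 10 or more. In Sun1_KO, Airn was detected in 86.7% of 30 nuclei with 3 to 4 and 83.3% of 18 nuclei with 5 to 9 Nsd1 UMIs, against 72.9% with 0.

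Genes with the same direction in both libraries were named by a fixed rule of size. On the higher side these were Ank3, Cxcl14, Cxcl9, Col12a1, Ebf1, Vcan, Col5a2, Xist, Plxdc2 and Abi3bp, of which Col12a1, Vcan, Col5a2 and Abi3bp encode matrix proteins. In Sun1_KO all 10 values were smaller without the 5 Xist-positive members: the log2 ratio of Ank3 was 6.00 with them and -0.58 without, that of Col12a1 7.50 and -0.56, that of Col5a2 8.46 and 0.13, and that of Vcan 6.04 and 0.64. Ebf1, a transcription factor of B cells and adipocyte precursors, stood at 11.08 with them and 6.42 without, and Abi3bp, a matrix protein gene, at 3.89 with them and -1.76 without. In Sun1_WT, Ank3 (4.25 with, 4.29 without) and Col12a1 (3.38 and 3.53) kept their ratio without the Xist-positive nuclei, whereas Vcan had 2.81 and 0.74.

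On the lower side the genes named by the rule included Ndst4, Cntnap4, Zfp985, Pif1, Gpc5, Med10, H2afx, Pbld1 and Shmt2. These did not depend on the Xist-positive nuclei for their sign. Ndst4 was at 117 CPM in Sun1_KO members against 410 CPM in Nsd1-zero nuclei (log2 ratio -1.79, -2.37 to -1.31, and -1.20 without Xist-positive nuclei), beside -0.81 in Sun1_WT. Cntnap4 was at 52.7 against 182 CPM (-1.74, -2.66 to -1.04, and -1.15 without), beside -0.87 in Sun1_WT. Shmt2, the mitochondrial serine hydroxymethyltransferase, had -1.85 (-3.41 to -0.84) in Sun1_KO and -0.59 (-0.75 to -0.42) in Sun1_WT. Med10, a Mediator subunit, had -1.38 (-2.59 to -0.52) and -0.55 (-0.67 to -0.44). Sun1_KO members hold only 1 to 31 UMIs of each of these genes.

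Gene lists were described by counts at 1.5-fold and by their median, beside 3.02% of all genes higher and 2.01% lower in Sun1_WT, and 14.1% higher and 21.1% lower in Sun1_KO. The median of all genes was 0.00 in Sun1_WT and -0.08 in Sun1_KO, or 0.04 in Sun1_KO without Xist-positive nuclei. The partners of Nsd1 came first. Of 8 compared writers of histone H3 lysine 36 methylation, none passed 1.5-fold in Sun1_WT, with a median of 0.03 and a range from -0.23 for Nsd2 to 0.14 for Nsd3. In Sun1_KO the 8 had a median of -0.01, or 0.18 without Xist-positive nuclei, and Nsd2 at -0.94 (-1.31 to -0.61, and -0.51 without Xist-positive nuclei) was past 1.5-fold lower. The 17 readers of the mark had medians of -0.08 in Sun1_KO (0.09 without Xist-positive nuclei) and 0.06 in Sun1_WT, and the demethylases 0.26 (5 genes, 0.34 without) and 0.06 (7 genes). Polycomb repressive complex 2 had -0.29 in Sun1_KO, or 0.02 without Xist-positive nuclei, and 0.01 in Sun1_WT (8 genes each). None of the 32 large chromatin regulators except the DNA demethylase gene Tet2, at 0.59 (0.44 to 0.74), passed 1.5-fold in Sun1_WT.

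Cell-cycle medians lay below 0 in the members of both libraries. Their size differed by Nsd1 level in Sun1_WT and, in Sun1_KO, with and without Xist-positive nuclei. Of 40 genes of the G2 and M phases, none passed 1.5-fold in Sun1_WT, but all 40 lay below 0, with a median of -0.38 and a range from -0.57 for Hmmr to -0.08 for Ccnb2. In Sun1_KO 30 of the 40 were at least 1.5-fold lower and the median was -0.95, or -0.38 without Xist-positive nuclei. Of 40 S-phase genes 32 lay below 0 in Sun1_WT (median -0.16), and 34 were at least 1.5-fold lower in Sun1_KO (median -1.08, or -0.81 without Xist-positive nuclei). In the 182 Sun1_WT members at or above 5 per 10000 the G2 and M median was -0.16 and the S-phase median 0.03.

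The 28 genes of ribosome biogenesis had a median of -0.50 in Sun1_KO, with 12 at least 1.5-fold lower (-0.23 without Xist-positive nuclei), and -0.33 in Sun1_WT, with 2 lower. All 28 lay below 0 in Sun1_WT, led by Rrp12, a factor of ribosomal subunit export, at -0.84 (-1.26 to -0.46). All 30 ribosomal protein genes lay below 0 in Sun1_WT as well, within a narrow range of -0.19 to -0.01.

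Hypoxia and glycolysis genes had medians above 0. Of 24 compared in Sun1_KO, 7 were at least 1.5-fold higher and none lower (median 0.41, or 0.26 without Xist-positive nuclei), and of 25 in Sun1_WT, 6 were higher and none lower (median 0.36). P4ha2, a collagen prolyl hydroxylase, was at 75.3 CPM in Sun1_KO members against 23 in Nsd1-zero nuclei (log2 ratio 1.74, 0.98 to 2.36) and at 59.5 CPM in Sun1_WT members against 24.0 (1.31, 1.10 to 1.51). In the members at or above 5 per 10000 P4ha2 stood at 0.87 (0.58 to 1.15) and the list median at 0.09. The matrix and mesenchymal list had a median of 2.22 in Sun1_KO with 16 of 22 higher and 0.51 in Sun1_WT with 9 of 22 higher, and 0.23 in both libraries without the Xist-positive nuclei.

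Interferon-stimulated genes had a median of 0.41 in Sun1_KO, where 11 of 29 were higher and 3 lower, and 0.07 in Sun1_WT, where none of 30 passed 1.5-fold. The median stayed at 0.38 in Sun1_KO without Xist-positive nuclei. AP-1 and immediate early genes had medians of 0.52 in Sun1_KO (7 of 16 higher, and a median of 0.03 without Xist-positive nuclei) and 0.21 in Sun1_WT (2 of 16 higher), and genes of the integrated stress response had -0.22 and -0.27. Medians in Sun1_KO and in Sun1_WT were also taken for p53 targets (0.12 and 0.04), YAP and TEAD targets (0.15 and 0.10), MHC class I presentation (0.18 and -0.02), intraflagellar transport (-0.02, or 0.25 without Xist-positive nuclei, and -0.07) and the nuclear envelope with the LINC complex, to which Sun1 belongs (-0.33, or 0.05 without Xist-positive nuclei, and -0.08). Genes that neighbour Nsd1 on chromosome 13 were compared as well: of 20 compared in Sun1_WT none passed 1.5-fold, with a median of -0.07 and a range from -0.33 for Nop16 to 0.36 for Arl10, and of 19 in Sun1_KO 1 was higher and 4 lower, with a median of -0.16, or 0.11 without Xist-positive nuclei.

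**Figure D3:**
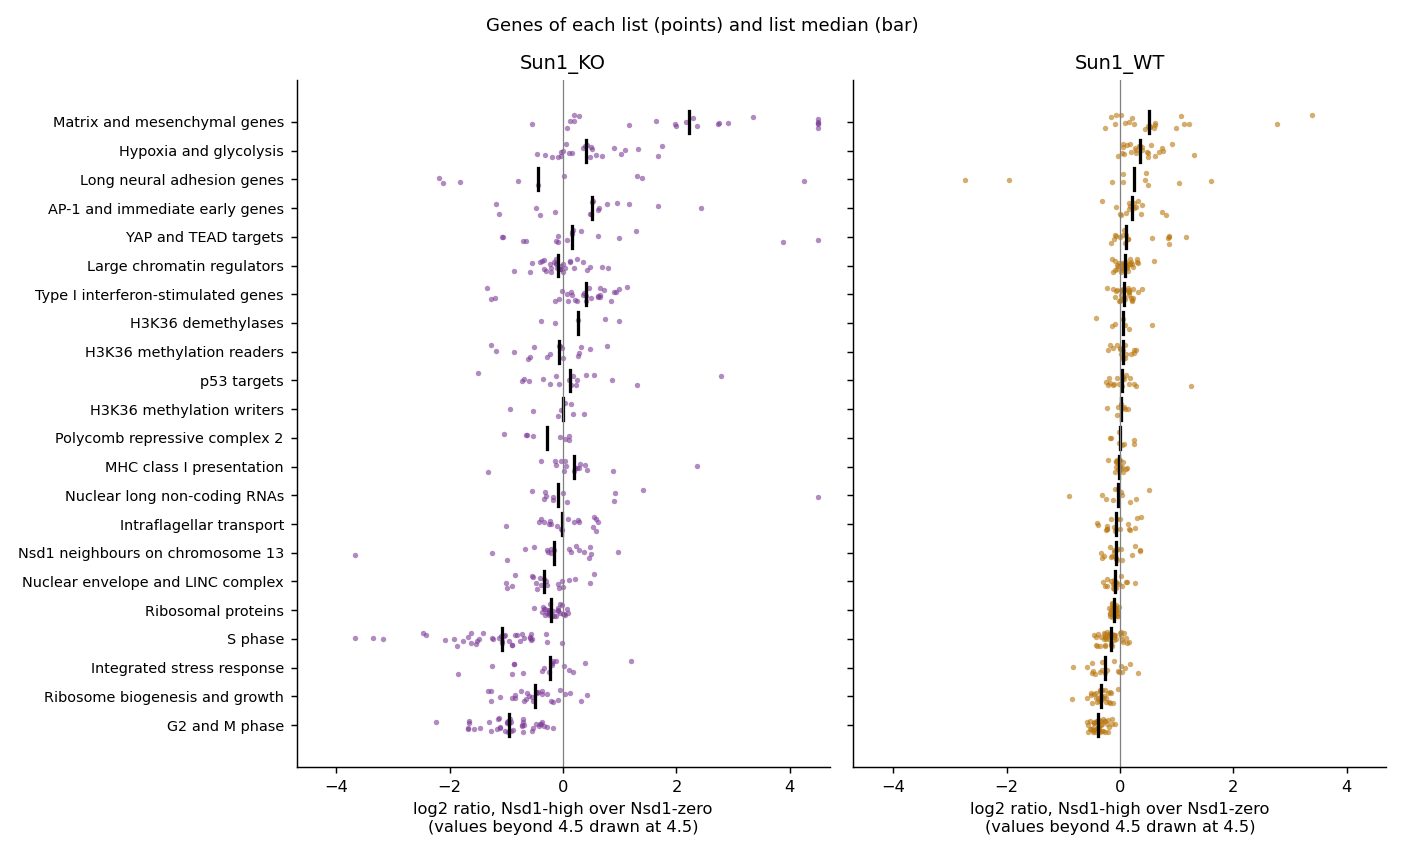
Log2 ratio of Nsd1-high over Nsd1-zero nuclei (horizontal axis) for the compared genes of each list (points) and the list median (bar), Sun1_KO left and Sun1_WT right. The G2 and M list lies below 0 in both libraries (medians -0.95 and -0.38), the hypoxia medians lie above 0 (0.41 and 0.36) with 7 of 24 Sun1_KO genes at or below it, and the matrix list reaches far right in Sun1_KO.

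The genes whose level followed Nsd1 most closely were sought across gated nuclei thinned to 10000 UMIs, by Spearman's rho in the library where it was nearer 0. All values were small: over 8609 genes the highest were P4ha1, Tgfbr3, Smad3, Tns1 and Asap1, between 0.08 and 0.09 by that rule, and the lowest were Diaph3, Smc4, Sgo1, Tuba1b and Nap1l1, between -0.12 and -0.10. Among the lowest, Smc4 and Sgo1 act in chromosome structure and segregation, while P4ha1 is a collagen prolyl hydroxylase and Tgfbr3 and Smad3 belong to TGF-beta signalling. In Sun1_WT alone, chosen after seeing the values, the highest were the receptor gene Fgfr1 at 0.19, Gpnmb at 0.17 and Scara5 at 0.15, and the lowest Tm4sf1 at -0.16, Ndst4 at -0.15 and Airn at -0.15. The nuclei share a library and the counts are sparse, so these are descriptions only.

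The members of the 2 genotypes were also compared with each other. Of 7895 genes, 407 (5.16%) were 2-fold or more higher and 760 (9.63%) lower in Sun1_KO members than in Sun1_WT members. Among Nsd1-zero nuclei, 214 of 11663 (1.83%) were higher and 275 (2.36%) lower in Sun1_KO than in Sun1_WT. The 5 largest on the higher side were Cyp7b1, an oxysterol hydroxylase, at 7.34 (6.65 to 8.20), Ebf1 at 6.21 (5.87 to 6.58), the cGMP-dependent kinase gene Prkg1 at 6.12 (5.51 to 6.81), Pdzrn3 at 5.91 (5.51 to 6.34) and the collagen gene Col5a2 at 5.76 (5.41 to 6.14). Each was concentrated in few nuclei, with 82.5% of the Sun1_KO members' Cyp7b1 UMIs in 1 nucleus, and in Nsd1-zero nuclei the ratio of Col5a2 was 0.07 (-0.61 to 0.72). The members compared were unlike in make-up: 5 of 19 in Sun1_KO but 6 of 306 in Sun1_WT held at least 2 Xist UMIs. Ebf1 and Col5a2 had smaller Sun1_KO ratios over Nsd1-zero nuclei without them, as given above. The comparison of members between genotypes was also run without nuclei of 2 or more Xist UMIs. The median log2 ratio was then 0.09 over 7719 genes, and leaving these nuclei out had moved it by 0.16. The counts past 2-fold and the values of single genes in that setting are not given here.

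The 5 largest on the lower side were lower in Nsd1-zero nuclei too. Itgb4, the integrin subunit of hemidesmosomes, was at 3.76 CPM in Sun1_KO members (1 UMI) and 82.6 CPM in Sun1_WT members, a log2 ratio of -3.87 (-9.76 to -1.97) beside -1.80 (-1.97 to -1.64) in Nsd1-zero nuclei. The growth factor gene Hbegf was at 33.9 CPM in Sun1_KO members and 242 CPM in Sun1_WT members (-2.76, -3.97 to -1.91), beside -1.04 (-1.12 to -0.96). Scara5 was at 7.53 and 82.3 CPM (-3.13, -6.50 to -1.59), beside -1.53 (-1.80 to -1.28), and the phosphatase gene Ptpn22 at 7.53 and 104 CPM (-3.47, -6.84 to -1.93), beside -0.53 (-0.64 to -0.42). Omd, osteomodulin, had no UMI in Sun1_KO members against 47.9 CPM in Sun1_WT members, at least 4.24-fold lower with the floor at 3 counts, beside -1.07 (-1.31 to -0.85) in Nsd1-zero nuclei.

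Accessibility, which the rule did not use, was read from the same nuclei. The 2 libraries held 183750142 counts in 134365 peaks for Sun1_KO and 227006096 counts in 127147 peaks for Sun1_WT, with medians of 61604 and 63898 per nucleus. Of recorded values, 75% in Sun1_KO and 75.5% in Sun1_WT were even, so counts were largely not independent and the intervals are too narrow even for counting error. CPM of accessibility is taken over the counts in autosomal peaks. Coordinates are those of the deposited peak names, and the files use mm10.

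Summed over its peaks, the Nsd1 gene itself (chr13:55209782-55318325, mm10) was no more open in Sun1_WT members. Its 9 Sun1_WT peaks summed to 17.2 CPM in members (414 counts) against 16.7 CPM in Nsd1-zero nuclei (1433 counts), a log2 ratio of 0.04 (-0.12 to 0.20). In the 182 members at or above 5 per 10000 they stood at 16.3 CPM, a ratio of -0.03. Single peaks in the gene went both ways. Higher in members were chr13:55249062-55249920 at 0.95 (0.40 to 1.48) and chr13:55288590-55289479 at 0.66 (0.19 to 1.10). Lower was chr13:55210279-55211068 at -0.96 (-1.97 to -0.16). Peaks within 500 kb on either side had a ratio of 0.02 (0.00 to 0.04) and chromosome 13 as a whole 0.03. The 4 Mb window that holds the gene stood at 0.09, rank 37 of 588 autosomal windows whose SD was 0.07. It lay in a run of 7 windows, from 36 to 64 Mb, that were all above 0, at 0.18, 0.11, 0.06, 0.09, 0.09, 0.10 and 0.19 in order along the chromosome, while the other 23 windows of chromosome 13 lay between -0.07 and 0.06. In members at or above 5 per 10000 the 7 stood between 0.07 and 0.26, and without Xist-positive nuclei between 0.06 and 0.19. In Sun1_KO members the same 7 windows stood between 0.05 and 0.35, where the SD of all windows was 0.12, and between -0.02 and 0.37 without Xist-positive nuclei. The other 23 windows of chromosome 13 lay between -0.10 and 0.14 in Sun1_KO members, so their range overlapped that of the run. The run was picked out after its values were seen. In Sun1_KO the 9 peaks of the gene summed to 17.3 CPM in members (21 counts) against 17.6 CPM in Nsd1-zero nuclei. The log2 ratio was 0.01 (-0.72 to 0.59), but this sum joined opposite parts. The 1 peak in the first 5 kb held 17 of the 21 counts, at 14.0 against 0.693 CPM. The other 8 peaks held 4 counts, at 3.30 against 16.9 CPM. Their log2 ratio was -2.19, or -1.83 without Xist-positive nuclei. Without those nuclei the whole gene stood at -1.14.

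Near the low-coordinate end of the gene lie peaks that are open in leukocyte-gene nuclei. In Sun1_WT the more open of 2 (chr13:55211236-55212134) was at 0.829 CPM in members (0.507 to 1.28), 0.746 CPM in Nsd1-zero nuclei and 48.1 CPM in leukocyte-gene nuclei, and it was open in 2.94% of members, 2.87% of Nsd1-zero nuclei and 63.7% of leukocyte-gene nuclei. The other (chr13:55210279-55211068) was at 0.539 CPM in members, 1.08 CPM in Nsd1-zero nuclei and 18.5 CPM in leukocyte-gene nuclei, a log2 ratio of members over Nsd1-zero of -0.96 (-1.97 to -0.16). In Sun1_KO the matching peak (chr13:55211213-55212082) was at 14.0 CPM in members (8.17 to 22.5), 0.693 CPM in Nsd1-zero nuclei and 38 CPM in leukocyte-gene nuclei. Its 17 counts came from 5 of 19 Sun1_KO members, 4 of which were among the 5 with Xist.

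**Figure D4:**
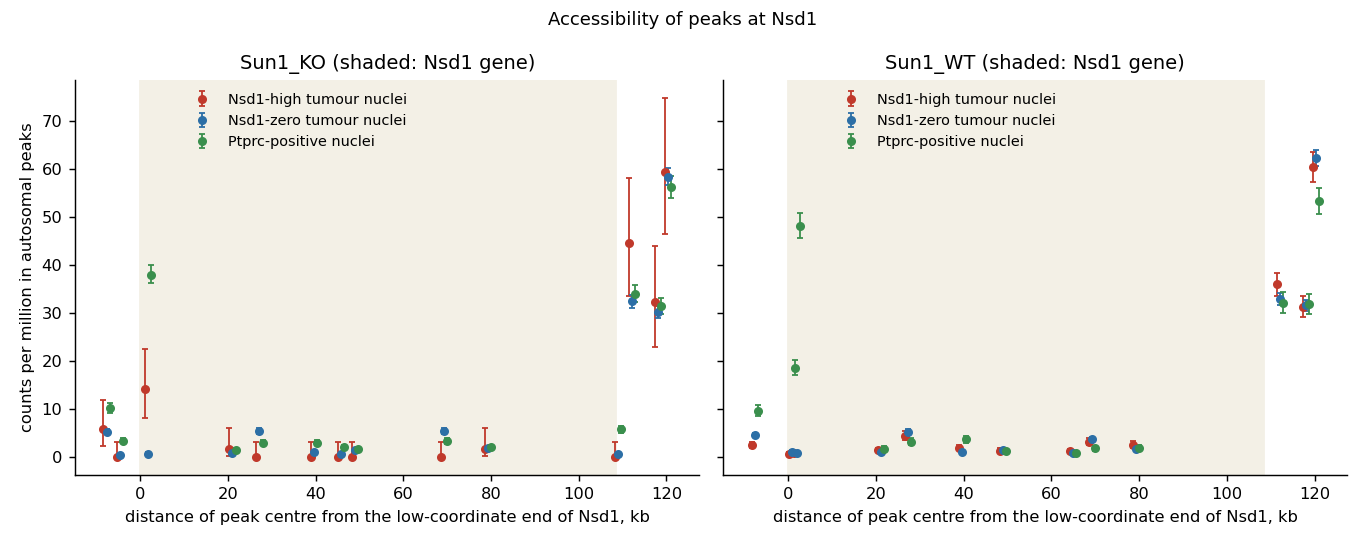
Accessibility of each peak (vertical axis, CPM over autosomal peaks, with 95% Poisson intervals) by the distance of its centre from the low-coordinate end of Nsd1 (horizontal axis, kb), Sun1_KO left and Sun1_WT right. At the 2 Sun1_WT peaks at the start of the gene members lie at 0.539 and 0.829 CPM, beside Nsd1-zero nuclei at 1.08 and 0.746 CPM, whereas Sun1_KO members reach 14.0 CPM.

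Accessibility was then compared peak by peak over the genome. Of 100992 peaks with at least 100 counts in Sun1_WT, 2242 (2.22%) were at least 2-fold more and 1993 (1.97%) at least 2-fold less open in members than in Nsd1-zero nuclei. In the 182 members at or above 5 per 10000 these were 2841 (2.92%) and 3933 (4.05%) of 97186 peaks. In Sun1_KO 9705 (11.0%) of 88509 peaks were more and 16130 (18.2%) less open, with 19 members. Leading peaks were ranked by the interval bound nearest 0, among peaks with the same direction in the other library. By that rule the Sun1_WT peak with the largest gain lay on chromosome 15 (chr15:56017901-56018787), 110599 bases from the nearest coding gene, Sntb1. It had 5.31 CPM in members (128 counts) against 0.221 CPM in Nsd1-zero nuclei (19 counts), a log2 ratio of 4.55 (3.88 to 5.36), and was open in 17.6% against 0.925% of nuclei. In Sun1_KO the overlapping peak was at 0.825 CPM in members (1 count) against 0.829 CPM in Nsd1-zero nuclei. Its log2 ratio of 0.57 is above 0 only through the 0.5 added to each sum. A peak in Colec12 was the one of the 5 leading peaks inside a gene, at 4.69 against 0.291 CPM. The Colec12 peak was at 14.0 CPM in Sun1_KO members against 0.489 CPM in Sun1_KO Nsd1-zero nuclei. The largest loss by that rule was at chr9:117818465-117819373, at 0.124 against 1.57 CPM (-3.44, -5.96 to -2.08). In Sun1_KO the leading gain was a peak in Adamts18 (chr8:113803835-113804733), at 19.0 CPM (23 counts) against 1.39 CPM, a log2 ratio of 3.80 that was 1.77 without Xist-positive nuclei.

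Genes that differed in RNA did so with and without a matching step in accessibility. Peaks over Dock10 summed to 131 CPM in Sun1_WT members against 31.7 CPM in Nsd1-zero nuclei, a log2 ratio of 2.04 (1.97 to 2.12), and those over Dpt to 20.2 against 8.95 CPM (1.17, 1.00 to 1.34). Peaks over Ablim1 had 0.58 (0.54 to 0.63) and over Arhgap28 0.46 (0.40 to 0.52). Ank3, whose RNA ratio was 4.25, had 259 against 239 CPM over 40 peaks, 0.12 (0.08 to 0.16). On the lower side, the 1 peak over Zfp985 had -1.37 (-1.61 to -1.14) and the 2 over Lrfn5 -0.74 (-1.22 to -0.31), while Syt1 had -0.14 (-0.21 to -0.07), Airn 0.06 (0.01 to 0.11) and Ptprt 0.18 (0.12 to 0.23).

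Promoter windows, from 250 bases before to 50 after each RefSeq start (GRCm38.p6, the assembly of mm10), were read for the named genes. The table held 133 windows of 99 named genes. The 4 windows shown are those in a peak of at least 50 counts over both sets that differed at least 2-fold in Sun1_WT, chosen by their values. CG pairs, where DNA can be methylated, are in capitals. Of all 32851 promoters of this length, the median held 7 CG pairs and 43.5% held at least 10, while these 4 held 6, 6, 3 and 26.
Zfp985: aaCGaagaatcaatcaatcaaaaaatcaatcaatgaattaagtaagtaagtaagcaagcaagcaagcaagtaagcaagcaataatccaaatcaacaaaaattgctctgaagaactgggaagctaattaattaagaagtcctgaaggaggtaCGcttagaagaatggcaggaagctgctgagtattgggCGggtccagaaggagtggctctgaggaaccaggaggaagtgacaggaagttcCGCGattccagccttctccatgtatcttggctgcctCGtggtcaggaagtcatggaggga
Ablim1: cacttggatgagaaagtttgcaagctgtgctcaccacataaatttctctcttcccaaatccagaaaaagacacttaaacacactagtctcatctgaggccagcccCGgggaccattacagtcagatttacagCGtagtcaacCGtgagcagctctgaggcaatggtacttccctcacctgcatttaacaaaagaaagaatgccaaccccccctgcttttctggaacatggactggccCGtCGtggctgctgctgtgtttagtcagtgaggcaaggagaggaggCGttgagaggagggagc
Airn: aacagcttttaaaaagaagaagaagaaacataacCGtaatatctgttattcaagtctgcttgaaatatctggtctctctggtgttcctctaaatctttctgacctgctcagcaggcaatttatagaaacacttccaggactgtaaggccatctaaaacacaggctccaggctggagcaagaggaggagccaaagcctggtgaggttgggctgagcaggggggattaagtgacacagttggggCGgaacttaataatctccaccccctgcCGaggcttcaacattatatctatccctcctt
Arhgap28: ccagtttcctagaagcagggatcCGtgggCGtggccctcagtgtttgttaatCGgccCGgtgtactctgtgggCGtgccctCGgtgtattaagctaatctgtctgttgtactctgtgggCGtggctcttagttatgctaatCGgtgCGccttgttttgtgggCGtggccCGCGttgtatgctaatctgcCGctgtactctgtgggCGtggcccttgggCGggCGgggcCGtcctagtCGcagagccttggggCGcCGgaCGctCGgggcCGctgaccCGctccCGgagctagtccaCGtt
The Zfp985 window (chr4:147553027-147553326, plus strand) lies in a peak at 7.09 CPM in Sun1_WT members against 18.3 CPM in Nsd1-zero nuclei, and the Airn window (chr17:12741061-12741360, plus strand) in a peak at 2.99 against 6.94 CPM. The Ablim1 window (chr19:57118975-57119274, minus strand) lies in a peak at 8.50 against 2.99 CPM, and the Arhgap28 window (chr17:68004059-68004358, minus strand) in one at 1.45 against 0.501 CPM. Each lies on the same side as the RNA of its gene in Sun1_WT. Other windows of these genes that lie in a peak moved less there. Those of Ablim1 had 0.31 (-0.71 to 1.19) and 0.37 (0.07 to 0.65), and that of Arhgap28 had 0.63 (0.40 to 0.86). The Arhgap28 peak shown rests on 35 counts in members and 43 in Nsd1-zero nuclei. In Sun1_KO the Airn peak was at 10.7 CPM in members (13 counts) against 5.09 CPM in Nsd1-zero nuclei, the other way round, as its RNA was. The log2 ratio of the peak was 1.13 (0.15 to 1.87). The Sun1_KO RNA ratio changed sign without Xist-positive nuclei, as given below, and their part in the peak was not tested. Zfp985 and its copies are near-identical, so the position of its reads is uncertain.

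To ask whether the open peaks mark the same nuclei as the RNA, a set of peaks was taken from the Sun1_WT members at or above 5 per 10000. Of 94896 autosomal peaks compared, 297 were at least 4-fold more open by the interval bound nearest 0 and 51 at least 4-fold less. By chromosome the 297 made up from 0.0153% of the compared peaks of chromosome 5 to 0.972% of those of chromosome 18. The Nsd1-zero nuclei were the other side of that choice, so they are low on the set by construction. The set was then read in other nuclei as well, as counts per 10000 autosomal counts of a nucleus. For Sun1_KO nuclei the 204 Sun1_KO peaks that overlap the set were used, so levels are not set across libraries.

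In Sun1_WT the median was 26.2 in the members that chose the set and 4.78 in members at 2 to 5 per 10000, against 2.68 in nuclei with 1 or 2 Nsd1 UMIs, 1.94 in nuclei of under 10000 UMIs with none and 2.68 in Nsd1-zero nuclei. The members at 2 to 5 per 10000 fell into both ranges: 56 of 124 (45.2%, 36.2 to 54.3) reached 10 per 10000, a boundary set after seeing the data, against 6.04% (4.27 to 8.26) of nuclei with 1 or 2 Nsd1 UMIs, neither of which chose the set. Nuclei of under 10000 UMIs with no Nsd1 UMI, which did not choose the set either, reached the boundary in 18 of 247 (7.29%, 4.38 to 11.3). Leukocyte-gene nuclei reached it in 4.72% (3.16 to 6.75) and Nsd1-zero nuclei, which helped to choose the set, in 1.94%. In Sun1_KO the median was 4.59 in members and 3.91 in Nsd1-zero nuclei. There 6 of 19 members (31.6%, 12.6 to 56.6) reached 10 per 10000, against 1.44% (0.721 to 2.56) of Nsd1-zero nuclei.

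**Figure D5:**
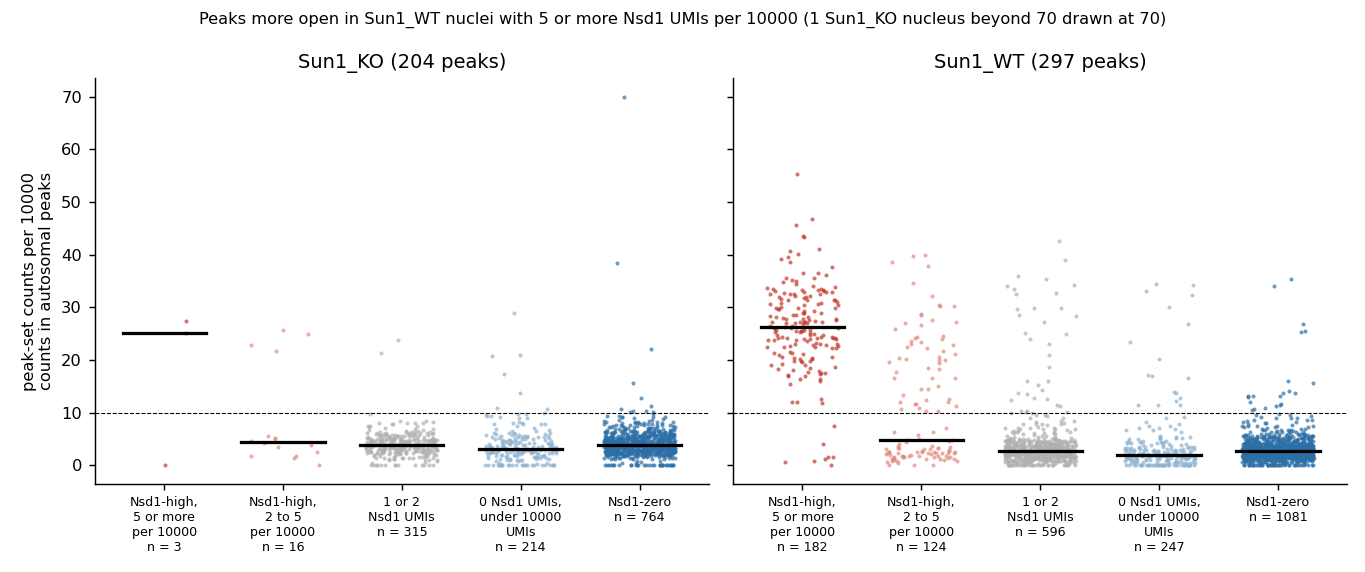
Counts in the peak set per 10000 autosomal counts (vertical axis) for each gated tumour nucleus (points) by Nsd1 class, with the median (bar) and the boundary of 10 (dashed), Sun1_KO left and Sun1_WT right. The leftmost Sun1_WT class chose the set, with a median of 26.2. Sun1_WT members at 2 to 5 per 10000 spread over both ranges.

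The 6 Sun1_KO members above the boundary were the 5 with Xist, at 21.7 to 25.6, and 1 of the other 14, a shallow nucleus of 1333 UMIs at 27.4. The other 13 lay between 0 and 5.60. All 5 with Xist had Ank3 UMIs, 5 to 20 each, and none of the other 14 had any. In Sun1_WT, 224 of the 300 members with 0 or 1 Xist UMI reached 10 per 10000, and 12 of those 300 had either of the 2 peaks in the first 5 kb of Nsd1 open.

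The set was also open outside the gate. Nuclei with fewer than 5 Hmga2 UMIs per 10000, at most 1 Ptprc UMI, at least 2 Xist UMIs and at least 50 fibroblast-marker UMIs per 10000 were looked up after seeing the data, 8 in Sun1_KO and 6 in Sun1_WT. The set stood at 9.59 to 29.96 per 10000 (median 20.3) in the 8 Sun1_KO nuclei and 20.6 to 37.0 (median 25.7) in the 6 Sun1_WT nuclei. Tumour markers summed to 2854 CPM in the 8 and 6395 CPM in the 6, with Krt8, Krt18, Met, Epha2 and Areg at 0 in both. These nuclei also had Ank3, at 429 CPM in Sun1_KO and 354 CPM in Sun1_WT, and no Syt1 or Ptprt UMI. Unlike Sun1_WT members, they held Airn at 985 and 526 CPM and fibroblast markers at 33311 and 30763 CPM. The start peak of Nsd1 was at 23.6 CPM in the 8 (10.2 to 46.5, 8 counts), open in 3 of them. In the 6 it was at 22.1 CPM (6.01 to 56.5), but its 4 counts came from 1 nucleus. Nsd1 RNA in these nuclei was at 236 CPM (28 UMIs) in Sun1_KO and 96.6 CPM (9 UMIs) in Sun1_WT, below the members. The part of such cells in the members' values was not tested.

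Sun1_WT members at 2 to 5 per 10000 were also split by the set. Among those of at least 10000 UMIs, 54 reached 10 per 10000 and 53 did not. The genes below were named from members, these among them, over Nsd1-zero nuclei, and the set came from other members over the same Nsd1-zero nuclei. The values are therefore a description and no independent check. Airn was at 110 CPM in the 54 against 285 CPM in the 53, Syt1 at 14.2 against 103 CPM, Ptprt at 11.2 against 37.9 CPM and Zfp985 at 56.2 against 146 CPM. Ank3 was at 62.2 against 1.12 CPM and Scara5 at 87.7 against 44.6 CPM, beside Nsd1 at 382 against 295 CPM. Dpt ran the other way, with 6 UMIs in the 54 against 12 UMIs in the 53, and Tnr was at 21.7 against 19.0 CPM, with overlapping intervals for both genes. The 54 were deeper, with a median of 21216.5 against 14415 UMIs, and held Xist at 35.2 CPM against no UMI, and the part of depth and of Xist-positive nuclei in these values was not tested. In Nsd1-zero nuclei Airn was at 208 and Syt1 at 60 CPM, below the 53 in both.

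Gated Sun1_WT nuclei of at least 10000 UMIs that were no members were divided by the set in the same way. They include the Nsd1-zero nuclei, which helped to choose both the genes and the set. The 64 that reached 10 per 10000 had Nsd1 at 78.7 CPM against 25.9 CPM in the 1600 that did not, Ank3 at 15.3 against 3.14 CPM, Syt1 at 22.6 against 59.8 CPM and Airn at 155 against 213 CPM. Xist stood at 28.4 CPM in the 64 against 1.23 CPM in the 1600, and its part in these values was not tested.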

How the data were processed

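The authors deposited, for each of 2 tumours, a table of RNA counts (UMIs per gene and nucleus) and a table of ATAC counts (per peak and nucleus). They also deposited a DESeq2 table whose columns are a base mean (a normalized signal), a log2 fold change with its error, a Wald statistic (a score) and p-values. The submitters' processing notes list Signac, Seurat, Cell Ranger ARC, Cell Ranger, FastQC and the build mm10. Versions, settings and the strand used in counting were not stated in the sources at hand. The peak sets of the 2 ATAC tables differ, so accessibility was compared within a library.

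Nuclei were kept with at least 500 UMIs, 300 genes and at most 20% mitochondrial UMIs, which removed 232 in Sun1_KO and 110 in Sun1_WT. No doublet caller was run. Counts were summed over the nuclei of a set; a log2 ratio used 0.5 added to each sum and totals without mitochondrial genes (RNA) or over autosomal peaks (ATAC). Features needed 100 summed counts. Ratio intervals are exact conditional binomial, shares Clopper-Pearson and levels Poisson, all 95% and covering counting error only, since each group is 1 library and nuclei are not replicates. The floor for no counts is 3. Python 3.11.15, numpy 2.4.6, pandas 2.3.3, scipy 1.17.1 and matplotlib 3.10.9 were used, and the scripts were tested on simulated data.

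The named genes were the 10 in each direction with the largest bound nearest 0 in the library where it was smaller, with the same sign in both libraries, leaving out mitochondrial genes, unnamed gene models and the genes of the rule; 1 of these genes is not reported here. By the same bound, 5 peaks each way per library, with the same direction in the other library, and 5 genes each way between genotypes were named, and from each gene list the 2 highest and 2 lowest members could be named. Members, gene lists and tests were chosen with earlier results of these data known.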

Additional observations from a re-analysis of the deposited data

Results flagged for a closer look

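The ratio of Nsd1-high over Nsd1-zero nuclei pointed in opposite directions in the 2 libraries for 2 of the named genes, and the difference between the libraries was not tested. Airn had a log2 ratio of 0.92 in Sun1_KO and -0.91 in Sun1_WT. One Sun1_KO member held 42.4% of the Airn UMIs of that set, and the ratio in Sun1_KO was -0.31 without Xist-positive nuclei. Galnt17, a glycosyltransferase gene, had 2.48 in Sun1_KO, at 64.0 CPM in members against 11.8 CPM in Nsd1-zero nuclei, and -0.94 in Sun1_WT, at 8.55 against 16.6 CPM. Its ratio in Sun1_KO was -0.49 without Xist-positive nuclei. The part of those nuclei in either difference was not tested.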

How the results depend on the processing

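No paired analysis was possible because each group is 1 library and the labels give no shared replicate numbers. Values below follow the order higher, then lower, and the cause of each shift was not tested. The share of members was 0.521% in Sun1_KO and 9.49% in Sun1_WT when 5 UMIs and 3 per 10000 were asked for, 11.7% in Sun1_WT after thinning, and 0.223% in Sun1_KO and 7.89% in Sun1_WT at 5 per 10000 or more. That last setting and the removal of Xist-positive nuclei were chosen after seeing the data.

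Genes past 2-fold in Sun1_KO numbered 905 higher with a minimum of 50 UMIs, 158 and 473 with 400, 2332 and 67 with a pseudocount of 5, and 1101 and 2414 with the stricter rule for members. In Sun1_WT they numbered 48 higher after thinning, 197 and 106 with 50 UMIs, 24 and 13 with 400, 24 lower with a pseudocount of 5, 159 higher against Nsd1-zero nuclei of at least 20000 UMIs, 46 higher without Xist-positive nuclei and 104 lower at 5 per 10000 or more. Between Sun1_KO and Sun1_WT members they numbered 239 and 464 after thinning, 735 higher with 50 UMIs, 80 and 233 with 400, 977 and 105 with a pseudocount of 5, and 1465 lower with the stricter rule. The setting with Nsd1-zero nuclei of at least 20000 UMIs was not run there, since it changes no member. The pseudocount of 5 moved the median of all genes in Sun1_KO by 0.47 on the log2 scale, and leaving out Xist-positive nuclei moved it by 0.20.

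Peaks past 2-fold in Sun1_KO numbered 18836 higher with the stricter rule, 3770 and 7331 against the deeper Nsd1-zero nuclei, 2149 and 4519 when counts were reduced to open or not, and 1000 and 3663 with a minimum of 400 counts. In Sun1_WT they numbered 1272 lower against the deeper nuclei, 641 and 388 as open or not, 310 and 177 with 400 counts, and 3933 lower at 5 per 10000 or more. Of values of named genes, 196 of 216 in Sun1_KO, 377 of 435 in Sun1_WT and 87 of 96 between genotypes stayed within the 95% counting interval of the reported value. A gene was left out of these counts in any setting where it had under the minimum of summed UMIs. Ank3 in Sun1_KO was left out in this way without Xist-positive nuclei. Abi3bp in Sun1_KO turned to -1.76 without Xist-positive nuclei. Ank3, Col12a1, Galnt17 and Airn changed sign there too, as given above. With 95 Nsd1 UMIs in 19 nuclei, counting error in Sun1_KO limits every value of a gene with few UMIs.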
